A study of Mus musculus with 24 samples.

Results

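The libraries described here are 6 of the 24 RNA-seq libraries of a mouse co-culture series, and they hold the response to tumour antigen in cultures made with Tmem175 knockout macrophages. They were chosen by their labels alone: 3 libraries of Tmem175 knockout bone marrow-derived macrophages cultured with spleen lymphocytes and antigen, against 3 libraries of the same co-culture without antigen. In both groups the macrophages were labelled Tmem175-/-, the lymphocytes were taken from the spleens of tumour-bearing mice, and no cytokine was added. The tumours were B16-F10-OVA, a melanoma line of the mouse engineered to make the model antigen ovalbumin, and the antigen was made from cells of that line. The other libraries hold the same pair of conditions with WT macrophages, and the antigen condition of both genotypes with IL-1beta or IL-18 added at 500 pg/ml. The labels state neither the form and amount of the antigen, nor the hours of culture, nor how many animals gave the cells, nor how the knockout was made. Each library is polyA RNA of a whole co-culture, so macrophage and lymphocyte transcripts were counted together, and fewer cells of a type and less RNA per cell cannot be told apart. Nothing in the labels says that replicates came from separate animals, so the p-values below measure the spread between these samples, which may be technical.

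Macrophages take up dead cells and microbes, and receptors of the Toll-like and C-type lectin families on their surface and in their endosomes switch on NF-kB, AP-1 and interferon regulatory factors. The genes that follow encode cytokines, chemokines, enzymes that make nitric oxide and itaconate, and the machinery that shows peptides to T cells. Interferons can act back on the cells that make them, which was not tested here. TMEM175 is a potassium and proton channel of endosomes and lysosomes, the acidic organelles in which macrophages break down what they have taken up.

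The compared libraries held 19062267 to 23381468 counts each. Levels below are in CPM, counts scaled to a common library total with edgeR's TMM factors, and errors after ± are the SD of 3 libraries for a level and the standard error of the fit for a log2 fold change. A principal component analysis of log2 CPM placed 88.55% of their variance on an axis that separated antigen from no antigen, and 4.431% on a second axis with replicate 2 of the no-antigen group at one end. That library stood apart in interferon and MHC class II genes, and leaving it out changed the call of 8 of the 218 genes named here and moved 15 called folds by over 1.5 times. Folds and calls that it changed so are given below with and without it. The exceptions are Il6 and Il12b, for which only levels are given, and Nos2, whose fold without that library is left out. Mitochondrially encoded genes took 2.81 to 2.89% of counts without antigen and 1.99 to 2.18% with it. Tmem175 itself read 15.03, 14.1 and 14.6 CPM without antigen and 7.61, 8.75 and 8.12 CPM with antigen, a decrease of 1.79-fold (log2 fold change -0.84 ± 0.084 SE, edgeR adjusted p = 5.18e-10). In WT co-cultures it read 25.3 ± 0.871 CPM without antigen and 15.2 ± 1.33 CPM with it, so the libraries labelled knockout were lower than WT in both conditions and still held Tmem175 reads. Which exons those reads cover, and how many come from the lymphocytes, was not tested. Macrophage identity genes, 20 in all, summed to 42649 to 44424 CPM without antigen and to 27042 to 30846 CPM with it. Most of that fall lay in Lpl, a member of the list whose levels are given below. Of the 20 genes 8 rose and 10 fell, with a median log2 fold change of -0.13. Of these Lyz2, the macrophage lysozyme, read 6082 ± 178 CPM without antigen and 6851 ± 768 CPM with it, a call lost under 3 of 13 alternatives, and Adgre1, which encodes F4/80, rose from 1446 ± 94.4 to 4500.00 ± 164 CPM. T cell receptor genes were near the lower end of the measured range, with Cd3e at 0.786, 1.49 and 1.17 CPM without antigen and 1.96, 2.34 and 1.32 CPM with it. Of 11 melanocyte genes 1 had enough counts to test, the endothelin receptor gene Ednrb, which rose from 3.48 ± 0.995 to 29.7 ± 3.05 CPM. The pigment gene Pmel had 4 to 8 counts a library and the melanosome genes Dct and Tyrp1 had 0 or 1 in both groups. Of 8 erythroid genes none had enough counts to test.

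Antigen changed most of the measured transcriptome. Of 14099 genes tested, 9633 (68.3%) passed an edgeR quasi-likelihood test at a Benjamini-Hochberg adjusted p under 0.05, 4760 of them higher with antigen (33.8%) and 4873 lower (34.6%). The change was 2-fold or more for 1544 genes that rose (11%) and 1191 that fell (8.45%). The 3 antigen libraries lay entirely above or below the 3 no-antigen libraries for 9946 genes (70.5%). The median log2 fold change over all tested genes was 0.0057. Below, a gene that rose or fell passed this test, and the counts of each group of genes are to be read against these percentages.

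The largest increase was in Saa3, a serum amyloid A gene that macrophages express in inflammation. It read 1.38, 6.44 and 1.93 CPM in the no-antigen libraries and 20219, 16859 and 18525 CPM in the antigen libraries (log2 fold change 12.52 ± 0.44, adjusted p = 3.58e-14). Saa3 was nearly absent from one group and abundant in each library of the other, and the second no-antigen library held the most of the few reads seen there. Without that library the log2 fold change was 13.46. Nos2, the inducible nitric oxide synthase, read 0, 2.08 and 0.1796 CPM without antigen and 669, 467 and 595 CPM with it (9.67 ± 0.49, adjusted p = 7.98e-12). Of the no-antigen libraries the first had no Nos2 read and the second had most of the few reads seen. Without the second the no-antigen mean of Nos2 was under 3 counts a library, so no fold is given for that setting. Marco, a scavenger receptor for bacteria and particles, read 0.5896, 0.639 and 0.584 CPM and then 266, 362 and 323 CPM, with no overlap and little spread on either side. Cd38, a surface enzyme that consumes NAD, went from 2.26, 3.14 and 2.42 CPM to 632, 599 and 614 CPM (7.89 ± 0.07, adjusted p = 5.21e-34). Others among the 20 strongest increases without overlap were Slc13a3, a dicarboxylate transporter (1.96 to 766 CPM), Lox, lysyl oxidase (7.51 to 927 CPM), Siglece, a sialic acid-binding inhibitory receptor (2.48 to 164 CPM), and the formyl peptide receptors Fpr1 (3.94 to 348 CPM) and Fpr2 (3.601 to 284 CPM), which sense bacterial and mitochondrial peptides.

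Some of the genes that fell were among the abundant ones of the resting co-culture. Lpl, the lipoprotein lipase that lipid-loaded macrophages secrete, read 10927, 11707 and 11258 CPM without antigen and 422, 719 and 545 CPM with it (log2 fold change -4.33 ± 0.203, adjusted p = 2.43e-12). Mmp12, macrophage elastase, read 8397, 6330.4 and 7612 CPM and then 171, 289 and 258 CPM. Itgax, which encodes the integrin CD11c, read 1077, 871 and 946 CPM and then 28.2, 48.2 and 42.5 CPM. For these genes the antigen libraries lay at least 10-fold below every no-antigen library, as the plot of counts in each library shows. Egr2, a transcription factor of alternatively activated and resident macrophages, went from 101, 83.9 and 91.2 CPM to 1.87, 3.03 and 2.69 CPM. Mamdc2 (394 to 1.099 CPM), Slco2b1, an organic anion transporter (110.5 to 0.308 CPM), Nes, the intermediate filament nestin (47.1 to 0.358 CPM), and Mgll, monoacylglycerol lipase (59.3 to 1.73 CPM), fell to under 2 CPM from lower levels, with log2 fold changes of -8.48, -8.49, -7.06 and -5.102. Among the genes with most counts, Fth1, the ferritin heavy chain, rose from 9038 ± 859 to 26647 ± 179 CPM, whereas Gpnmb, a glycoprotein of the lysosome, fell from 18926 ± 1217 to 6486 ± 691 CPM and Cd36, the fatty acid and oxidised lipid receptor, from 6896 ± 139 to 1147 ± 126 CPM.

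Ly6i, a lymphocyte antigen 6 family gene, was another of the strongest increases (0.213 to 84.9 CPM), and Hmga2, a chromatin protein gene (30.1 to 0.696 CPM), Sox4, a transcription factor gene (24.9 to 1.25 CPM), and Cdkn1c, which encodes the cell cycle inhibitor p57 (20.9 to 1.11 CPM), were others of the strongest decreases.

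**Figure D1:**
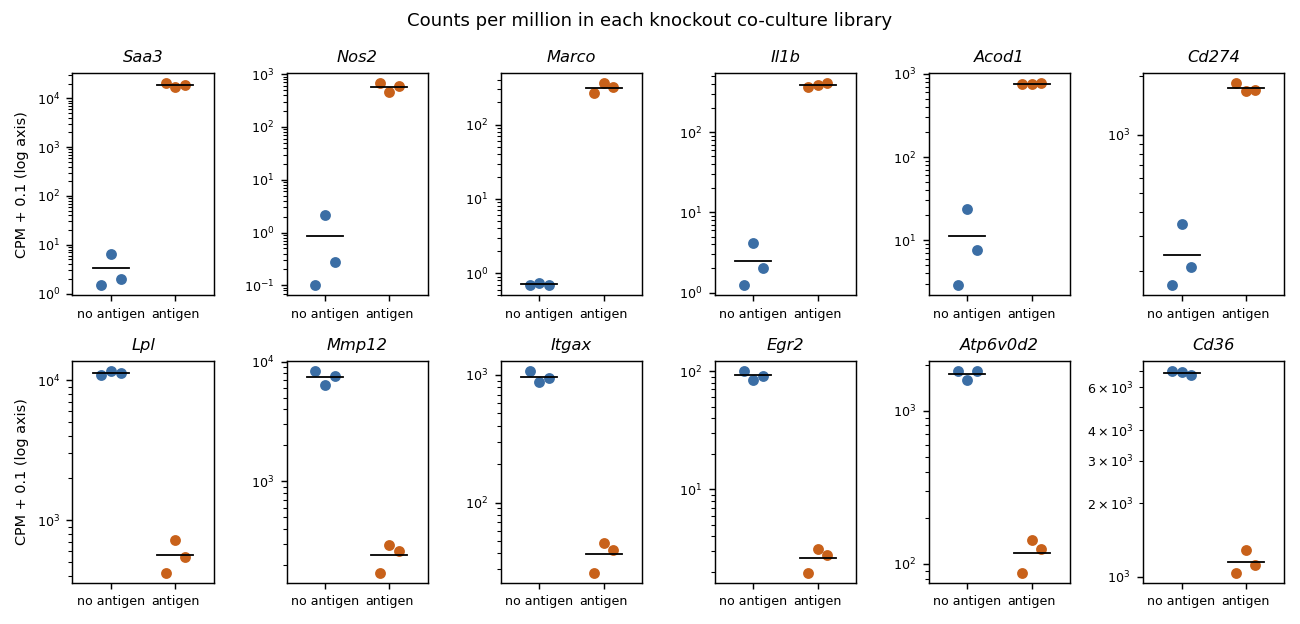
CPM plus 0.1 (log axis) of 12 genes in each knockout co-culture library, 3 without antigen (blue) and 3 with antigen (orange), with the mean as a bar. In each panel the 3 antigen libraries lie wholly above (top row) or wholly below (bottom row) the 3 no-antigen libraries. For Saa3, Nos2, Il1b, Acod1 and Cd274 replicate 2 lies well above the other no-antigen libraries.

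Most cytokine genes rose. Of 20 inflammatory cytokine genes tested, 18 rose, 14 of them 2-fold or more, and 1 fell, with a median log2 fold change of 2.15. Il1b, the inflammasome-processed cytokine, read 1.13, 4.1 and 1.93 CPM without antigen and 367, 382 and 406 CPM with it (log2 fold change 7.36 ± 0.31, adjusted p = 5.57e-13), and its no-antigen levels differed more between libraries than its antigen levels did. Without the second no-antigen library its log2 fold change was 7.97. Il1a, which acts on the same receptor without that processing, read 1.97, 1.76 and 2.2 CPM and 34.9, 36.4 and 35.3 CPM. Tnf, the prototype of macrophage inflammatory cytokines, went from 10.8, 13.95 and 10.1 CPM to 62.02, 44.3 and 53.2 CPM, and Il10, which restrains macrophages, from 1.18, 2.61 and 1.48 CPM to 18.7, 9.69 and 12.3 CPM. Neither group of libraries overlapped the other for these cytokines. Il6 and Il12b were low throughout: Il6 read 0.0491, 0.266 and 0.0449 CPM and then 2.51, 1.99 and 2.69 CPM, and Il12b 0.0983, 0.213 and 0.0449 CPM and then 2.72, 1.59 and 2.34 CPM, with under 3 counts a library on average before antigen. With such genes at the value that 3 counts a library would give, the median of the list was 2.02. Il18 rose less, from 11.1 ± 2.06 to 20.7 ± 0.717 CPM. Tgfb1 fell from 266 ± 8.36 to 155 ± 4.56 CPM, and Csf1, the macrophage growth factor, did not pass the test (10.5 and 13.3 CPM, adjusted p = 0.0757).

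The inhibitors and receptors of the same cytokines moved too. Il18bp, the secreted trap for IL-18, read 20.1, 64.3 and 22.2 CPM without antigen and 184, 207 and 197 CPM with it (log2 fold change 2.48 ± 0.27, adjusted p = 2.49e-07). Without the no-antigen library in which it was highest, its log2 fold change was 3.23. Il1rn, the IL-1 receptor antagonist, read 100.2, 79.7 and 91.5 CPM and then 273, 209.7 and 227 CPM, with replicate 1 the highest on both sides. Il1r1, the signalling receptor, rose from 0.549 ± 0.1104 to 24.3 ± 4.74 CPM, while its partner Il1rap fell from 19.5 ± 0.716 to 10.2 ± 0.174 CPM and Il1rl1, the IL-33 receptor, from 2.23 ± 0.279 to 0.656 ± 0.169 CPM. The genes that activate IL-1beta and IL-18 were less uniform. Of 18 inflammasome genes, 9 rose and 5 fell, and the median was 0.11. Mefv, which encodes pyrin, rose from 14.3 ± 0.856 to 164 ± 2.88 CPM, Nlrp3 from 45.6 ± 12.4 to 80.9 ± 1.15 CPM, and Gsdmd, whose product forms the pores of pyroptosis, from 65.6 ± 6.41 to 105 ± 6.33 CPM. Casp1, the protease that cuts both cytokines, read 152, 222 and 165 CPM without antigen and 191, 184 and 185 CPM with it (adjusted p = 0.568), the second no-antigen library lying above every antigen library. Without that library Casp1 had a log2 fold change of 0.25 ± 0.038 (edgeR adjusted p = 7.64e-07). Txnip and Gsdme fell, to 277 and 6.09 CPM from 502 and 11.2 CPM.

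Most chemokine genes rose as well. Of 11 CC chemokines 9 rose and 1 fell (median 1.899), and of 11 CXC chemokines 6 rose and 2 fell (median 1.695). Ccl5, which attracts T cells, read 1.47, 11.3 and 2.29 CPM without antigen and 492, 350.2 and 382 CPM with it (log2 fold change 6.397 ± 0.42, adjusted p = 2.6e-10), and without the second no-antigen library the log2 fold change was 7.76. The monocyte attractant Ccl2 read 40.1, 42.2 and 41.04 CPM and then 317, 195 and 222 CPM, and its neighbour in sequence and function Ccl7 8.45, 10.3 and 9.38 CPM and then 92.6, 48.9 and 52.4 CPM. For both, replicate 1 was the highest antigen library and the no-antigen libraries were close together. The neutrophil attractants Cxcl1 (0.189 to 5.44 CPM), Cxcl2 (2.06 to 38.5 CPM) and Cxcl3 (0.112 to 17.9 CPM, from under 3 counts a library) rose from very low levels. Ccl3 (34.9 to 98.5 CPM) and Ccl4 (8.97 to 33.1 CPM), which attract macrophages and T cells, rose as well, and Ccl9 fell from 743 to 585 CPM. The interferon-induced T cell attractants gave no rise: Cxcl10 read 2.16, 11.1 and 6.06 CPM and then 10.2, 8.795 and 8.204 CPM (adjusted p = 0.179), and Cxcl9 2.21, 32.9 and 7.59 CPM and then 4.04, 3.38 and 3.31 CPM, which passed as lower (adjusted p = 0.0118) although the groups overlap. Without the second no-antigen library, the highest for both, Cxcl9 had a log2 fold change of -0.46 (edgeR adjusted p = 0.354) and Cxcl10 one of 1.13 (edgeR adjusted p = 0.00282), which then passed as higher. Among receptors Ccr2 and Ccr3 fell, from 69.7 to 26.2 and from 13.2 to 2.42 CPM.

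The windows around the start sites of the neutrophil attractant genes are shown because these genes rose together. They run from 250 bases before to 50 bases after a RefSeq start on build GRCm38.p6, which is not the build of the counts, and where a gene has several windows the first with a match is printed, here and below. Capitals mark GGGANNTTCC, the kappaB motif to which NF-kB dimers bind, searched on both strands. In Cxcl2 (chr5:90903649-90903948, plus strand) and Cxcl3 (chr5:90785851-90786150, plus strand) the same 11 bases match on both strands in overlap, and the first base lies 97 and 73 bases before the start.
Cxcl2: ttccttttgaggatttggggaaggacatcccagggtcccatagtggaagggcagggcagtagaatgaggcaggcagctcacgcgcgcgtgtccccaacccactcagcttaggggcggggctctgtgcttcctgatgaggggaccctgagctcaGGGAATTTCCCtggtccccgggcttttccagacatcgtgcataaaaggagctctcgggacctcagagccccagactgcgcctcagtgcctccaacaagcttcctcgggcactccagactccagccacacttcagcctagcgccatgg
Cxcl3: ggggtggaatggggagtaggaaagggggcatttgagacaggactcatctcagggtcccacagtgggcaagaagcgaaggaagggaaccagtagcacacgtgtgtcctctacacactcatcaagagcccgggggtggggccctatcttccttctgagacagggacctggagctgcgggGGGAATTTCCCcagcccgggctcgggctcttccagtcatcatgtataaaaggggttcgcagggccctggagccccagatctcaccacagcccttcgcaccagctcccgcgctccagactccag
The motif was present in 4 of 9 windows of the CXC chemokines, 0 of 8 of the CC chemokines, and 1.47% of all 32851 windows of this length. It was in 2.36% of windows of genes that rose 2-fold or more and in 1.76% of those that fell 2-fold or more.

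NF-kB and its feedback genes rose for the most part: 18 of 21 rose and 3 fell, with a median of 1.097. Nfkbiz, a nuclear co-activator of secondary response genes, read 14.3, 13.5 and 15.1 CPM without antigen and 178, 144 and 165 CPM with it (log2 fold change 3.501 ± 0.11, adjusted p = 7.27e-16). Irak3, which damps Toll-like receptor signalling, read 30.9, 29.7 and 31.7 CPM and then 286, 282 and 277 CPM. Bcl3 rose from 9.12 ± 0.3699 to 42.7 ± 2.62 CPM and Nfkbia, the inhibitor that retains NF-kB in the cytoplasm, from 29.5 ± 2.2 to 115 ± 15.6 CPM. The subunit gene Nfkb1 rose less, from 115 ± 4.76 to 130.1 ± 3.45 CPM (0.18 ± 0.039), and Nfkbid, another nuclear inhibitor-like protein, fell from 12.2 ± 1.16 to 5.53 ± 0.771 CPM. Socs3, the feedback inhibitor of the IL-6 receptor family, rose from 3.11 ± 1.16 to 235 ± 35.1 CPM and Socs1, which restrains interferon receptors, from 0.795 ± 0.397 to 11.5 ± 0.769 CPM. Of the receptors upstream, Tlr2 rose from 45.5 ± 3.22 to 184 ± 20.5 CPM and Cd14, the lipopolysaccharide co-receptor, from 166 ± 17.8 to 558 ± 52.9 CPM. The nucleic acid sensors Tlr8 and Tlr13 fell, to 273 from 480.3 CPM and to 408 from 663 CPM. Irak1 and Irak4, the kinases that relay the signal, did not pass the test (86.8 and 87.3 CPM, adjusted p = 0.838, and 47.3 and 46.01 CPM, adjusted p = 0.426).

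**Figure D2:**
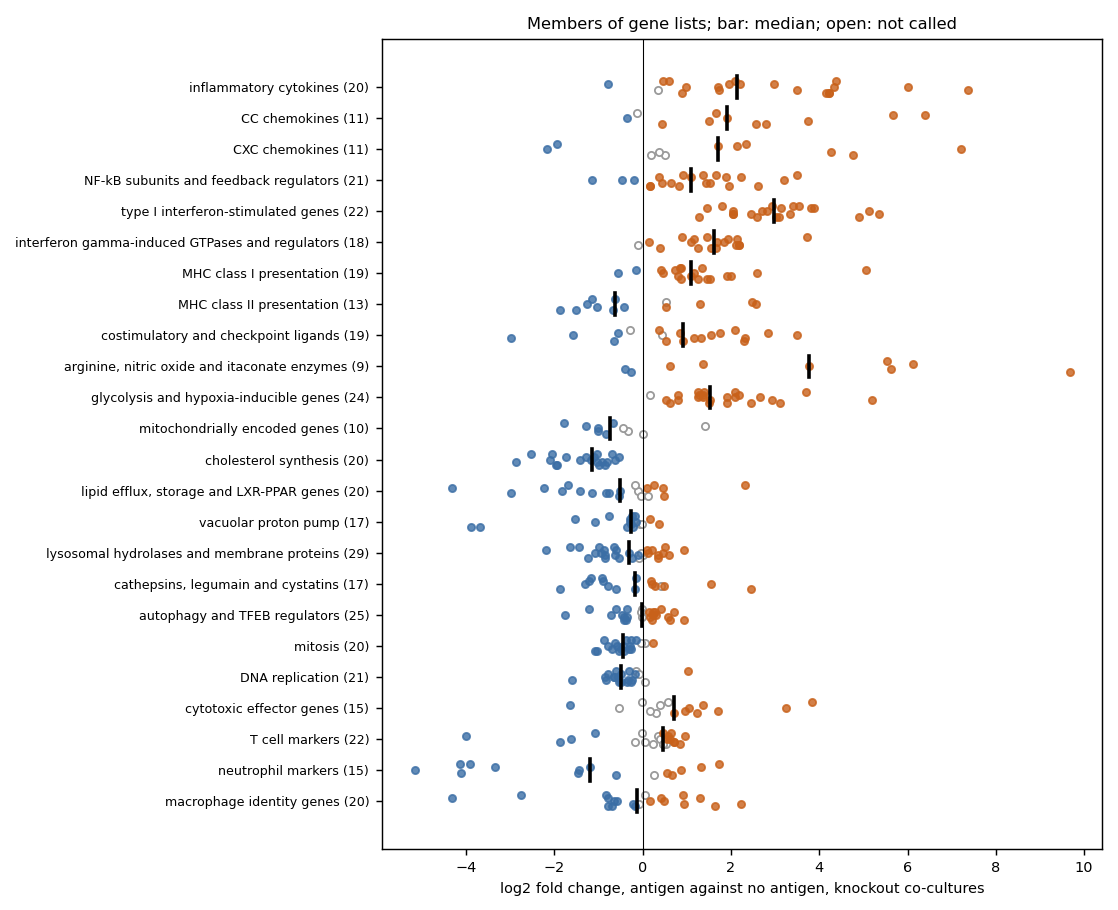
Log2 fold change with antigen of each tested member of 24 gene lists (number of tested members in parentheses), knockout co-cultures. Orange points rose, blue points fell, open points did not pass the test, and bars are medians, which run from 3.77 for arginine, nitric oxide and itaconate enzymes to -1.20 for neutrophil markers.

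Type I interferon-stimulated genes rose together: 22 of 22 passed, and 22 did so at 2-fold or more, with a median log2 fold change of 2.97. Irf7, the transcription factor that amplifies interferon production, read 10.2, 22.5 and 17.8 CPM without antigen and 616, 581 and 568 CPM with it (5.13 ± 0.205, adjusted p = 2.32e-13). Isg15, a ubiquitin-like protein, read 5.503, 9.27 and 6.38 CPM and then 104, 97.9 and 90.3 CPM. Ifit3, whose product binds viral RNA in a complex with related proteins, read 7.66, 24.8 and 14.9 CPM and then 109, 104 and 89.3 CPM. In each of these genes the first no-antigen library was the lowest and the second the highest, and all stayed under the antigen libraries. Ifi44 (4.199 to 124 CPM) and Usp18 (3.099 to 45.4 CPM), which removes ISG15 from proteins, rose alike, and Stat2, a factor that carries the interferon signal, went from 83.3 to 344 CPM.

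The no-antigen libraries were far apart in the genes that interferon gamma induces. The summed level of 18 such genes ran from 1038 to 2805 CPM without antigen and from 4100.4 to 4204 CPM with it. Gbp6, a guanylate-binding protein gene, read 2.31, 15.5 and 6.38 CPM and then 103, 103 and 105 CPM, and Iigp1, an immunity-related GTPase gene, 13.2, 158 and 45.6 CPM and then 307, 338 and 335 CPM. In both the second no-antigen library lay many-fold above the first, and all lay below the antigen libraries. The log2 fold changes of Gbp6 and Iigp1 were 3.72 and 2.19 with all libraries and 4.57 and 3.47 without the second. Of the list 17 genes rose, with a median of 1.605. Without the second no-antigen library the median was 2.23 with 17 genes higher, and a fit of the 6 compared libraries alone called 10. For the type I list the median without that library was 3.31. Ifng itself, made by T and NK cells, read 0.0491, 0.1598 and 0.314 CPM and then 2.76, 2.93 and 2.25 CPM, a rise that all antigen libraries share at a low level, while its receptor gene Ifngr1 did not pass the test (212 and 198 CPM, adjusted p = 0.0789).

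**Figure D3:**
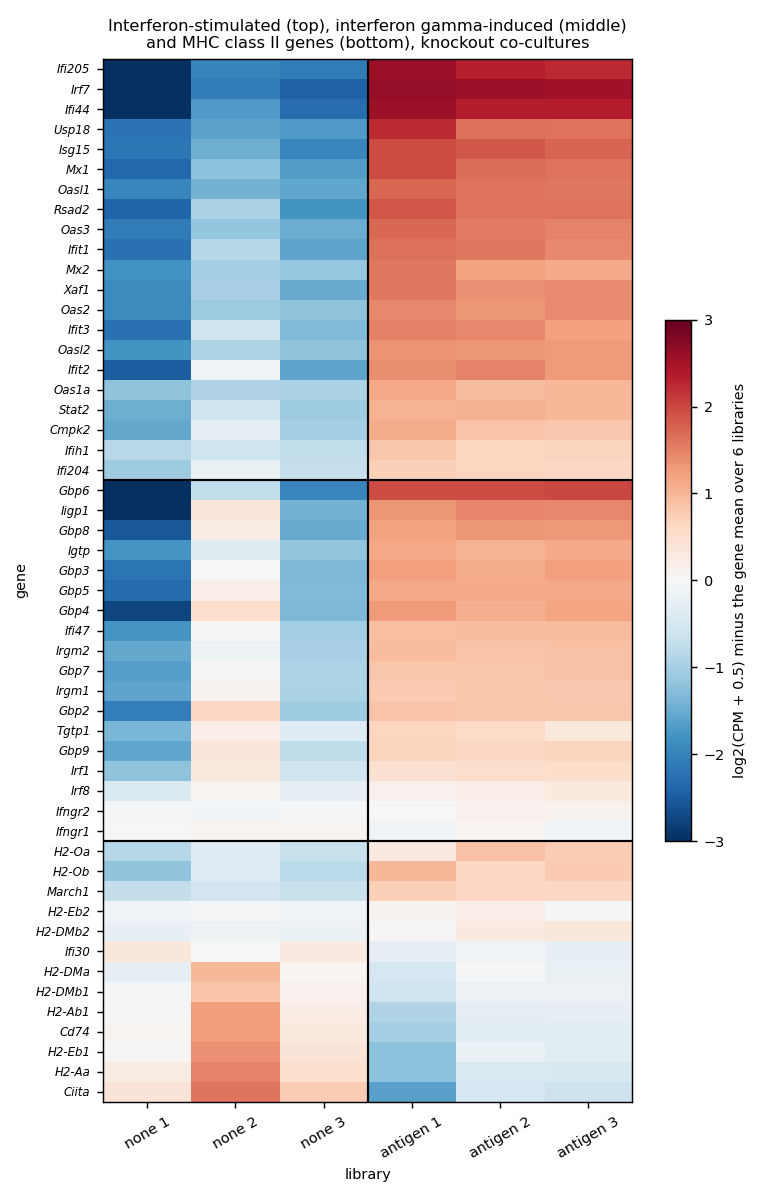
Log2(CPM + 0.5) of the tested members of 3 gene lists (all but 1 type I gene are drawn), less the gene's mean over the 6 knockout libraries; colour saturates at 3 in either direction. The second no-antigen library has the highest no-antigen level in 22 of 22 type I genes, 16 of 18 interferon gamma genes and 12 of 13 MHC class II genes, and is the highest of all 6 libraries in 7 of the MHC class II genes.

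The start-site windows of Isg15 (chr4:156200769-156201068, minus strand), Ifit3 (chr19:34583279-34583578, plus strand) and Saa3 (chr7:46715627-46715926, minus strand) are given, as above, from RefSeq on build GRCm38.p6, because the first pair belongs to the group that rose together and the last to the gene that rose most. Capitals mark TTTCNNTTTC or its reverse complement GAAANNGAAA, the core of the interferon-stimulated response element, which in Isg15 occurs 3 times in overlap.
Isg15: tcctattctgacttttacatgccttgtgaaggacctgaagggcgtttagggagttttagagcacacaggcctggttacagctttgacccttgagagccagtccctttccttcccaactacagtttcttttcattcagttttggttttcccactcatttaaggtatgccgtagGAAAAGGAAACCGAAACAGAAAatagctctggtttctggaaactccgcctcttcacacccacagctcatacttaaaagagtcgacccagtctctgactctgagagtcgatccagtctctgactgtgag
Ifit3: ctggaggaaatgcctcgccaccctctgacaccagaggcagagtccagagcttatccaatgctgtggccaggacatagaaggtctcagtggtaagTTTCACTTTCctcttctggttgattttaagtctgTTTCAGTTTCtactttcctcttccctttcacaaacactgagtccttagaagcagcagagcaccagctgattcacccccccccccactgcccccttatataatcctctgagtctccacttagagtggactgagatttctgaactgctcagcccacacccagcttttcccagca
Saa3: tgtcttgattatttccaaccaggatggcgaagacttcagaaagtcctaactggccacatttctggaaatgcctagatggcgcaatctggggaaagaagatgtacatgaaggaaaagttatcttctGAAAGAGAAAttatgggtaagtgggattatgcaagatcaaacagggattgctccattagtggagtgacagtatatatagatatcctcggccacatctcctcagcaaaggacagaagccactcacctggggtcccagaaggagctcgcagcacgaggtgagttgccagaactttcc
The motif was present in 9 of 17 windows of the type I list, 8 of 16 of the interferon gamma list, and 3.44% of all windows. Among genes that rose 2-fold or more 7.89% of windows held it, and among genes that fell 2-fold or more 2.77%.

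Most MHC class I genes rose and most MHC class II genes fell. Of 19 MHC class I pathway genes 17 rose and 2 fell (median 1.104). The class I heavy chain gene H2-K1 read 625, 983 and 733 CPM without antigen and 2255, 2239 and 2253 CPM with it. B2m, its light chain, read 1780.1, 2635 and 2098 CPM and then 5251, 5038 and 5129.7 CPM, and Tap1, which pumps peptides into the endoplasmic reticulum, 52.2, 134 and 70.4 CPM and then 343, 343 and 345 CPM. The second no-antigen library was again the highest of its group for all of these and below the antigen libraries. The chaperone genes Calr and Pdia3 fell, to 707 from 1037 CPM and to 654 from 727 CPM. Pdia3 did not pass without the second no-antigen library (edgeR adjusted p = 0.0552).

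Of 13 MHC class II pathway genes 8 fell and 4 rose (median -0.62). Ciita, the master regulator of class II transcription, read 40.9, 96.9 and 53.4 CPM without antigen and 9.78, 21.9 and 20.3 CPM with it (log2 fold change -1.88 ± 0.29, adjusted p = 1.54e-05). Cd74, the invariant chain, read 573, 1279 and 664 CPM and then 268, 436 and 429.5 CPM. H2-Aa, a class II alpha chain, read 338, 815 and 404 CPM and then 124, 212 and 209 CPM. All antigen libraries lay below all no-antigen libraries for these genes, and the second no-antigen library was the highest of its group for each. Without it the log2 fold changes were -1.44 for Ciita (adjusted p = 3.95e-05), -0.69 for Cd74 (adjusted p = 0.00107) and -1.01 for H2-Aa (adjusted p = 7.1e-05). In the fit of the compared libraries alone 3 class II genes were called lower in place of 8. March1, a ubiquitin ligase that removes class II from the surface, rose from 139 ± 7.77 to 344 ± 14.4 CPM.

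Ligands that T cells read beside the peptide rose in the larger part: 13 of 19 went up and 4 down (median 0.91). Cd274, which encodes the inhibitory ligand PD-L1, read 168, 349 and 208 CPM without antigen and 1841, 1677 and 1700.4 CPM with it (log2 fold change 2.85 ± 0.17, adjusted p = 8.68e-11). The activating ligand Cd86 read 10.02, 21.2 and 11.8 CPM and then 68.9, 68.97 and 75.6 CPM, and Cd40 5.21, 12.1 and 6.24 CPM and then 21.6, 23.4 and 23.4 CPM. Cd80 rose less, from 11.8 ± 1.06 to 17.1 ± 1.11 CPM. Cd83, a maturation marker that stabilises MHC class II and CD86, fell from 74.95 ± 11.03 to 9.58 ± 1.88 CPM. Pdcd1lg2, the second PD-1 ligand, read 1.84 and 1.48 CPM and did not pass the test (adjusted p = 0.411). Its log2 fold change was -0.29 with all libraries and 0.46 without the second no-antigen library.

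Enzymes that divert arginine and the citric acid cycle rose with Nos2. Acod1, which makes itaconate, read 2.75, 23.4 and 7.498 CPM without antigen and 750.3, 765 and 771 CPM with it (log2 fold change 6.12 ± 0.41, adjusted p = 4.01e-10), and its antigen libraries were nearly equal while the no-antigen libraries differed several-fold. Without the second no-antigen library the log2 fold changes of Acod1 and Arg1 were 7.21 and 6.62, against 6.12 and 5.62 with all libraries. Arg1, arginase 1, read 0.344, 1.38 and 0.314 CPM and then 41.3, 25.6 and 29.7 CPM, so that Arg1 and Nos2, often set against each other as marks of opposite macrophage states, went up in the same libraries. Ass1, which regenerates arginine for nitric oxide synthesis, rose from 4.19 ± 0.107 to 195 ± 18.1 CPM. Of 9 genes of this group 7 rose and 2 fell, the latter Asl (42.4 to 35.4 CPM) and the arginine importer Slc7a2 (18.1 to 13.7 CPM), a call lost under 7 of 13 alternatives (without the second no-antigen library edgeR adjusted p = 0.187). Ptgs2, the inducible cyclooxygenase, read 0.933, 3.25 and 1.84 CPM and then 141, 105 and 138 CPM, and Ptges, which turns its product into prostaglandin E2, rose from 2.13 ± 0.272 to 27.5 ± 0.813 CPM. Hpgd, which inactivates prostaglandins, fell from 4.28 ± 0.991 to 0.362 ± 0.0858 CPM, and Hpgds, the prostaglandin D synthase of haematopoietic cells, from 378 ± 21 to 158 ± 11.9 CPM.

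Glycolysis and hypoxia-inducible genes rose in 23 of 24 cases and fell in none, with a median of 1.51. Slc16a3, the lactate exporter, read 16.7, 22.2 and 17.5 CPM without antigen and 175, 147 and 162 CPM with it. Pfkfb3, which makes the activator of phosphofructokinase, read 79.98, 95.5 and 79.8 CPM and then 741, 554 and 648 CPM, and Ldha, lactate dehydrogenase, rose from 492 ± 2.095 to 1167 ± 97.3 CPM. The groups were well apart in each of these genes, with no library between them. Pdk1 was the member that did not pass (78.3 and 87.2 CPM, adjusted p = 0.0863), and it passed as higher without the second no-antigen library (edgeR adjusted p = 0.0278). Nuclear genes of oxidative phosphorylation showed no common direction: 10 of 23 rose and 8 fell (median 0.098). Mitochondrially encoded genes fell in 6 of 10 cases. Among them mt-Cytb, for cytochrome b, went from 3998, 3783 and 3970.1 CPM to 1105, 1163 and 1173 CPM, and mt-Nd5 from 4107 to 1689.7 CPM, while mt-Co1 read 14055 and 14066 CPM (adjusted p = 0.984). The mean values of mt-Co2, mt-Co3 and mt-Atp6 were at most 1.995 CPM in either group and are uncertain: the nuclear genome holds close copies, and whether reads were shared with them was not tested.

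The window around the Ldha start (chr7:46845554-46845853, plus strand, RefSeq, build GRCm38.p6) is printed because Ldha belongs to the list in which all but 1 gene rose. Capitals mark ACGTGC, a form of the hypoxia response core, searched on both strands. The shorter string ACGTG, which also occurs in lower case in this window, was neither marked nor counted.
Ldha: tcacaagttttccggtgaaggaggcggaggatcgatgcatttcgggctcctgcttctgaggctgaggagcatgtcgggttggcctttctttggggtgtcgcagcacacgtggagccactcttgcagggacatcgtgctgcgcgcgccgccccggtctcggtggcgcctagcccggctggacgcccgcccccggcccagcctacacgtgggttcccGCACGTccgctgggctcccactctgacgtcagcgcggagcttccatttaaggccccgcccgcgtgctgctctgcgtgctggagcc
ACGTGC was present in 11 of 33 windows of this list, 5.91% of all windows and 7.85% of the windows of tested genes. Windows of genes that rose 2-fold or more held it in 6.78% of cases, and those of genes that fell 2-fold or more in 6.75%.

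Most lipid genes fell. All 20 cholesterol synthesis genes tested were lower with antigen, with a median of -1.15 and 13 of them lower by 2-fold or more. Cyp51, the lanosterol demethylase, read 119, 129.8 and 114 CPM without antigen and 17.2, 22.7 and 23.2 CPM with it (log2 fold change -2.53 ± 0.103, adjusted p = 2.49e-14). Idi1, which isomerises the building block of the pathway, read 39.2, 40.2 and 38.8 CPM and then 7.91, 10.9 and 9.92 CPM, and Sqle, squalene epoxidase, 75.2, 77.8 and 75.7 CPM and then 15.8, 20.2 and 17.7 CPM. The groups were far apart in each of these, with replicate 1 the lowest antigen library. Srebf2, the transcription factor of the pathway, fell from 147 ± 0.238 to 84.8 ± 3.22 CPM. Of 20 genes of lipid storage and efflux 11 fell and 5 rose. Pparg, the nuclear receptor of fat storage, went from 95.4, 99.6 and 104 CPM to 13.2, 12.8 and 11.8 CPM, and its known targets Fabp4 (315 to 66.8 CPM) and Plin2 (1202 to 336 CPM) fell with Lpl and Cd36. Hilpda, a hypoxia-induced lipid droplet protein gene, rose from 6.18 ± 0.683 to 30.6 ± 1.09 CPM, and Abca1, the cholesterol exporter, from 1079 ± 54.8 to 1518 ± 99.3 CPM.

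Iron, oxidant and amino acid stress genes changed in both directions. Slc40a1, ferroportin, the iron exporter, fell from 274 ± 36.4 to 62.98 ± 15.9 CPM, Hmox1, which breaks down heme, rose from 242 ± 33.6 to 1137 ± 104 CPM, and Cp, ceruloplasmin, from 12.6 ± 4.63 to 307 ± 32.3 CPM. Slc7a11, the cystine importer, read 21.4, 15.2 and 18.3 CPM without antigen and 332, 384 and 424 CPM with it, and Sod2, the mitochondrial superoxide dismutase, 60.1, 64.8 and 61.2 CPM and then 802, 782 and 784 CPM. Both rose many-fold with no overlap, while Prdx1 (3333 and 3304 CPM, adjusted p = 0.859) did not pass the test and Gclc fell from 45.1 ± 3.85 to 34 ± 1.398 CPM. Among the stress genes of the endoplasmic reticulum that rose were Atf4 (101 to 379 CPM), Asns, asparagine synthetase (10.2 to 94.7 CPM), Trib3 (1.46 to 52.3 CPM) and Ddit3 (11.2 to 51.1 CPM). The folding genes Hsp90b1 and Sdf2l1 fell, to 647 from 829.6 CPM and to 26.9 from 45.7 CPM, and the list as a whole counted 9 higher and 9 lower of 21.

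Transcripts of the lysosome, in which TMEM175 works, were lower for its proton pump and for many hydrolases. Of 17 genes for subunits of the vacuolar proton pump and its accessory proteins 13 fell and 2 rose, and their summed level went from 7373 to 8054 CPM without antigen to 3399 to 3513 CPM with it. The median was -0.25, and Atp6v0d2 and Atp6v0a1 had the largest decreases of the list. Atp6v0d2, the isoform of osteoclasts and macrophages, read 1822, 1577 and 1825 CPM without antigen and 87.3, 144 and 124 CPM with it (log2 fold change -3.88 ± 0.17, adjusted p = 5.96e-13). Atp6v0a1 read 899, 885 and 886 CPM and then 63.97, 75.2 and 68.9 CPM, whereas the alternative subunit Atp6v0a2 rose from 56.9 ± 1.86 to 73.9 ± 0.937 CPM. The catalytic subunit genes Atp6v1a (1179 to 556 CPM) and Atp6v1b2 (1378 to 475 CPM) fell by less. Of 29 hydrolase and membrane protein genes 17 fell and 9 rose (median -0.31). Lipa, the acid lipase that frees cholesterol, read 2939, 2673 and 2884 CPM and then 579.9, 668 and 609 CPM, and Gusb, beta-glucuronidase, 821, 779 and 836 CPM and then 236, 275 and 265 CPM. Lamp1, the main membrane protein, did not pass the test (2459.9 and 2332 CPM, adjusted p = 0.0931).

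Of 17 genes of lysosomal proteases and their inhibitors 10 fell and 6 rose. Ctsd, an aspartic protease, read 4747, 4128 and 4765 CPM without antigen and 1728, 2151 and 1956 CPM with it, and Ctsk, a collagen-degrading protease, fell from 63.5 ± 15.6 to 25.7 ± 5.01 CPM. Ctsc, which activates granule proteases, rose from 461 ± 182 to 1345 ± 40.2 CPM. Among ion channels of the lysosome that share the organelle with TMEM175, the two-pore channel genes Tpcn1 (138 to 43.1 CPM) and Tpcn2 (115 to 48.01 CPM) fell, Trpm2 rose from 13.4 ± 3.35 to 52.9 ± 1.93 CPM, and the list counted 9 higher and 8 lower of 19. Tfeb, the transcription factor of lysosome and autophagy genes, read 41.1, 34.9 and 39.5 CPM without antigen and 10.5, 11.7 and 11.95 CPM with it (log2 fold change -1.76 ± 0.076, adjusted p = 5.84e-18) and every antigen library lay far below the no-antigen range. Autophagy genes moved both ways (12 higher and 10 lower of 25): Sqstm1, the cargo receptor p62, rose from 403 ± 31.5 to 774 ± 14.9 CPM and Gabarapl1 fell from 274 ± 26.6 to 117 ± 4.63 CPM.

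Surface receptor and matrix genes changed in both directions. Clec4e, the lectin Mincle, read 8.89, 17.7 and 10.9 CPM without antigen and 459, 391 and 408 CPM with it, with the second no-antigen library the highest of its group. Clec7a, the beta-glucan receptor Dectin-1, read 1906, 2292 and 2087 CPM and then 189, 279 and 268 CPM, and the mannose receptor gene Mrc1 871, 949 and 938 CPM and then 239, 332 and 284 CPM. Of 21 such genes 8 rose and 9 fell. The complement genes C3 (48.2 to 563 CPM) and C4b (2.07 to 34.7 CPM) rose. The log2 fold change of C4b was 4.097, and 4.82 without the second no-antigen library. Mmp14, a membrane collagenase, read 76.2, 70.4 and 73.4 CPM and then 474, 523 and 504 CPM, and Serpinb2, an inhibitor of plasminogen activation, rose from 0.701 ± 0.0326 to 75.4 ± 8.57 CPM, while Plau, urokinase, fell from 604 ± 50.7 to 93.2 ± 13.4 CPM. Genes that mark macrophages as such split 8 higher and 10 lower of 20, with Trem2, a lipid receptor, down from 688 ± 11.5 to 102 ± 20.7 CPM and Spi1, which encodes PU.1, not past the test (223 and 230.1 CPM, adjusted p = 0.213).

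Most cell cycle genes fell. Of 20 mitosis genes 17 fell and 1 rose, with a median of -0.44, and of 21 DNA replication genes 17 fell and 1 rose, with a median of -0.49. Mki67, the proliferation marker Ki-67, read 235, 215 and 227 CPM without antigen and 111, 118 and 101 CPM with it (log2 fold change -1.03 ± 0.068, adjusted p = 7.93e-12). Cdc20, an activator of the anaphase-promoting complex, read 12.5, 11.1 and 11.99 CPM and then 7.23, 7.65 and 7.15 CPM. The antigen libraries were below every no-antigen library in both. Ccnb1 and Ube2c did not pass the test (34.3 and 35.4 CPM, adjusted p = 0.43, and 20.2 and 19.7 CPM, adjusted p = 0.762). Pcna, the replication clamp, fell furthest of its list, from 480.4 ± 25.9 to 158 ± 5.303 CPM, and Ccne1, which drives entry into S phase, rose from 7.88 ± 0.201 to 16.1 ± 0.8598 CPM. Cdkn1a, the cell cycle inhibitor p21, rose from 90.8 ± 7.43 to 231 ± 8.89 CPM. The start-site windows of Cdc20 (chr4:118437294-118437593, minus strand) and Mki67 (chr7:135716330-135716629, minus strand), from RefSeq on build GRCm38.p6, are printed because these genes belong to the list that fell less here than in WT cultures. Capitals mark TTTGAA, the cell cycle gene homology region, and the CCAAT box, each searched on both strands.
Cdc20: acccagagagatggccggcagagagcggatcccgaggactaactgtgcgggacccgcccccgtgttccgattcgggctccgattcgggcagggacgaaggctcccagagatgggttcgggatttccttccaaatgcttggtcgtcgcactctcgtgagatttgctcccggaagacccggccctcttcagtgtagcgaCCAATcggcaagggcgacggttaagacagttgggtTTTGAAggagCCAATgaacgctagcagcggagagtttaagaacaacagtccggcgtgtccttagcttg
Mki67: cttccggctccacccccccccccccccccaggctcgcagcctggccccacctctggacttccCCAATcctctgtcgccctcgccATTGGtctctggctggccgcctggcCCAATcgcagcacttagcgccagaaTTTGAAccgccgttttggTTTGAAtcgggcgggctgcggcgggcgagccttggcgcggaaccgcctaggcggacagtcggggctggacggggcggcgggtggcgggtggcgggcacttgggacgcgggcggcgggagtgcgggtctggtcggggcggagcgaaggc
TTTGAA was present in 11 of 16 windows of the mitosis list, 17.9% of all windows and 12.4% of the windows of tested genes. CCAAT was present in 14 of 16, 37.4% and 37.6% in that order. The cholesterol synthesis windows held CCAAT in 12 of 15 cases. For genes that rose and genes that fell 2-fold or more the shares were 13.5% and 11.7% for TTTGAA, and 35.5% and 37.4% for CCAAT.

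Cytotoxic genes rose from low levels. Gzmb, granzyme B of cytotoxic cells, read 13.3, 13.8 and 13.3 CPM without antigen and 39.5, 45.3 and 48.03 CPM with it (log2 fold change 1.72 ± 0.16, adjusted p = 2.09e-08), the no-antigen libraries being almost identical. Prf1, perforin, read 0.835, 0.959 and 0.763 CPM and then 2.38, 2.53 and 1.68 CPM. Gzma read 1.67, 1.65 and 2.56 CPM and then 3.36, 3.48 and 2.91 CPM, and Gzmc 0.442, 0.426 and 0.1796 CPM and then 2.76, 2.83 and 4.32 CPM. Of 15 cytotoxic genes 8 rose and 1 fell (median 0.71). Of 22 T cell genes 9 rose, by under 2-fold each, and 4 fell. Cd8a read 1.92, 2.24 and 2.38 CPM and then 4.04, 4.17 and 3.48 CPM, Trac, the T cell receptor alpha constant region, 1.23, 1.44 and 1.17 CPM and then 1.96, 1.89 and 1.72 CPM. Il7r and Cd28 fell from 907 to 293 and from 104 to 6.51 CPM. Il7r held most of the counts of this list, so the summed level of the T cell list (1044 to 1062 CPM without antigen, 308 to 377 CPM with it) followed Il7r. Immunoglobulin genes took up 0.32 to 0.45% of counts without antigen and 0.41 to 0.50% with it, and 26 of 182 rose and 1 fell. That count rested on single libraries: it was 52, 17 and 12 without replicates 1, 2 and 3 of the no-antigen group, and 13 without the first antigen library. Igkc, the kappa light chain, read 836, 603 and 641 CPM and then 902, 746 and 855 CPM, which did not pass the test (adjusted p = 0.252). WT co-cultures held far less immunoglobulin RNA, 0.00958 to 0.0192% of counts in the 6 libraries of the same conditions, and Igkc read 13.9 ± 2.996 and 16.3 ± 4.13 CPM there. Ighm, the IgM heavy chain gene, did not share the gap without antigen, where its levels, given further below, were close in both genotypes. What part this gap has in differences between the genotypes was not tested. Of 15 neutrophil genes 9 fell and 5 rose, and their summed level went from 1504 to 1596 CPM without antigen to 872 to 1035 CPM with it. Among granule genes Ltf, lactoferrin, read 139, 110.3 and 119.9 CPM and then 3.61, 3.28 and 3.35 CPM, and Ngp went from 326 ± 7.99 to 32.2 ± 1.19 CPM, while Mmp8 rose from 81.3 ± 6.09 to 271 ± 60.8 CPM.

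Among other cell types B cell genes rose in 7 of 12 cases and fell in 1, with a summed level of 155 to 170.4 CPM without antigen and 163 to 175 CPM with it. Cd79a, a part of the B cell receptor, read 1.57, 1.44 and 1.93 CPM and then 2.64, 2.88 and 2.51 CPM, a call lost without the second no-antigen library (edgeR adjusted p = 0.0603). Plasma cell genes outside the immunoglobulin loci counted 4 higher and 5 lower of 12. Among the latter Jchain, the joining chain of secreted antibody, read 219.7, 167 and 187 CPM and then 152, 134 and 148 CPM, a call lost under 8 of 13 alternatives. Dendritic cell genes counted 4 higher and 4 lower of 11: Fscn1 and Ly75, which mature dendritic cells express, rose to 5.08 and 43.4 CPM from 0.785 and 11.1 CPM, while Clec9a and Siglech, which mark subsets of them, fell to 1.22 and 0.231 CPM from 2.98 and 0.582 CPM. The call of Clec9a was lost under 4 and that of Siglech under 3 of 13 alternatives, and without the second no-antigen library Clec9a had a log2 fold change of -0.33 (edgeR adjusted p = 0.415) against -1.27 with all libraries. Fibroblast and matrix genes counted 5 higher and 1 lower of 15, and Col3a1, a collagen gene, read 2.01, 1.33 and 1.35 CPM and then 4.25, 4.82 and 4.68 CPM. The dendritic cell genes that fell numbered 2 without the first antigen library, and the fibroblast and matrix genes that rose numbered 9 in a fit of the compared libraries alone. The plasma cell list summed to 692 to 749 CPM without antigen and 555 to 575 CPM with it. The dendritic cell list summed to 52.0 to 56.5 and then 65.5 to 69.2 CPM. Fibroblast and matrix genes came to 146 to 230 and then 89.4 to 101 CPM. Fn1, whose levels are given further below, held most of that sum without antigen and was the 1 member that fell. What part each of these groups had in the changes above was not tested.

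Alternative activation genes, which IL-4 and IL-13 induce in macrophages, counted 4 higher and 6 lower of 12 (median -0.76). Mgl2, a lectin gene, read 4.62, 6.02 and 4.45 CPM without antigen and 0.425, 0.497 and 0.529 CPM with it, and Chil3, which encodes the chitinase-like protein Ym1, 184, 172 and 180.00 CPM and then 75.9, 72.2 and 74.2 CPM. Il4ra, the receptor for both cytokines, went the other way, from 81.2 ± 12.2 to 364 ± 16.3 CPM. Of 20 immediate early genes 11 rose, among them the AP-1 subunit gene Fosl1 (0.131 to 0.6896 CPM), and 5 fell, among them Egr1 (10.8 to 4.19 CPM), Egr3 (1.49 to 0.523 CPM) and Jun (109.9 to 82.2 CPM). Genes of p53 and apoptosis rose in 13 of 19 cases and fell in 4. Ribosomal protein genes rose in 54 of 79 cases, each by under 2-fold, with a median of 0.17. Of Fc receptor genes 5 of 8 rose, and Fcgr4, an activating receptor for IgG, read 135, 269.6 and 171 CPM and then 515, 520.4 and 502 CPM, while Fcgrt, which recycles IgG, fell from 75.3 ± 4.32 to 43.6 ± 5.67 CPM.

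The same comparison in WT co-cultures, which shares no library with this one, gave log2 fold changes that correlated across genes with those of the knockout cultures (Pearson r 0.922, Spearman rho 0.895 over 14099 genes of the same normalisation, a description, since genes are not independent replicates). A gene was higher with antigen in both genotypes in 4083 cases, lower in both in 4210, and called in opposite directions in 48. The difference of the responses, knockout minus WT, was tested as an interaction in the same fit. It passed for 1183 genes (8.39%), with 534 higher in knockout (3.79%) and 649 lower (4.6%). Among them 499 responded in the same direction and further in knockout cultures, 481 in the same direction but less far, and 203 had opposite signs. Leaving out single libraries moved the count between 819 and 1697, the latter without the second no-antigen knockout library.

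**Figure D4:**
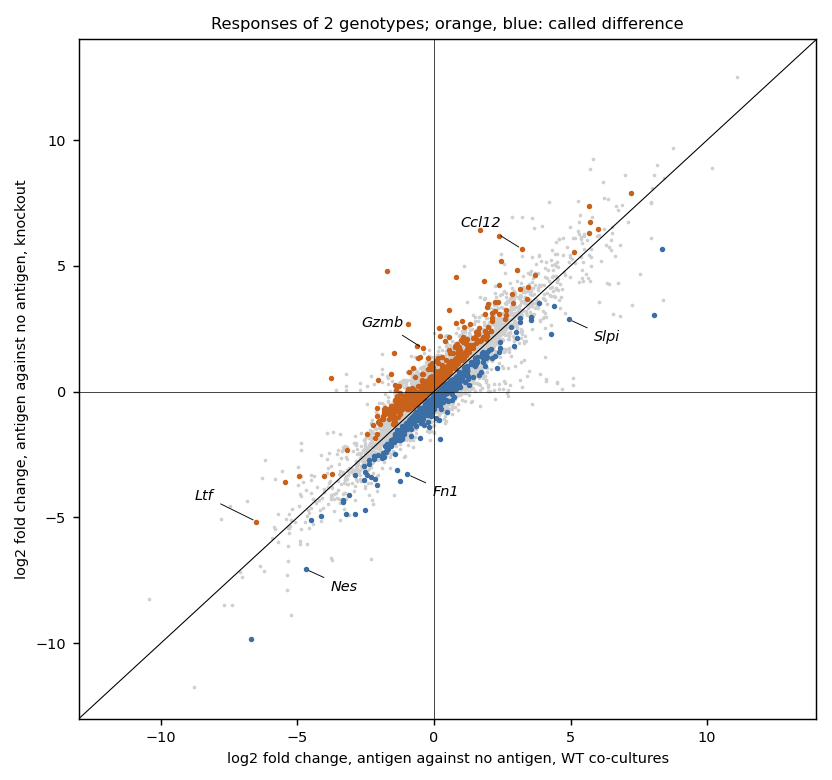
Log2 fold change with antigen in knockout co-cultures (vertical) against WT co-cultures (horizontal) for all 14099 tested genes, with the line of equal response. Orange and blue points are genes whose responses differed by the interaction test, higher or lower in knockout, and labels name 6 genes described in the text.

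The mitosis list differed throughout. All 20 mitosis genes differed in the same direction (20 higher, 0 lower by the interaction), with a median difference of 0.801 on the log2 scale against -0.0061 over all genes. Their median log2 fold change was -0.44 in knockout and -1.299 in WT cultures, where all 20 fell. The summed level was 919 to 952 CPM without antigen and 605 to 669 CPM with it in knockout, and 1141 to 1147 and 455 to 492 CPM in WT. The knockout sums thus lay below the WT sums without antigen and above them with it. The alternatives counted here included leaving out each library without added cytokine in turn, but not the fit without immunoglobulin genes. Under each of them 20 of the 20 differences passed, and the median difference stayed between 0.79 and 0.88. Ccnb2, cyclin B2, read 19.3, 22.6 and 20.2 CPM and then 18.1, 15.7 and 17.6 CPM in knockout, and 24.7, 24.3 and 26.2 CPM and then 9.94, 9.93 and 9.67 CPM in WT (difference 1.08 ± 0.102, adjusted p = 7.33e-08). In WT the antigen libraries lay far below the others, and in knockout just below. Mki67 differed by less, 0.39 ± 0.095 (adjusted p = 0.0127). DNA replication genes differed in 12 of 21 cases, all higher in knockout, with 9 to 13 under the alternatives, and Pcna was not among them (-1.61 in knockout, -1.69 in WT, adjusted p of the difference = 0.445).

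Cytotoxic genes differed in 6 of 15 cases, all higher in knockout, and in 5 to 8 under the alternatives. Gzmb read 42.7, 46.4 and 45.9 CPM without antigen and 33.6, 27.98 and 40.7 CPM with it in WT cultures, the difference of the responses being 2.12 ± 0.21 (adjusted p = 6.04e-06). The low group for Gzmb was thus knockout without antigen, every library of which lay below every other library of these conditions. Prf1 was laid out alike, at 2.18 ± 0.537 and then 1.52 ± 0.5601 CPM in WT (difference 1.88 ± 0.38, adjusted p = 0.00191). Gzma (2.31 ± 0.34, adjusted p = 4.65e-05) and Gzmc (2.71 ± 0.42, adjusted p = 8.59e-05) differed in the same direction. The T cell receptor genes Cd3e and Trac had differences of 0.38 ± 0.38 and 0.76 ± 0.28 that did not pass (adjusted p = 0.639 and 0.0983).

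**Figure D5:**
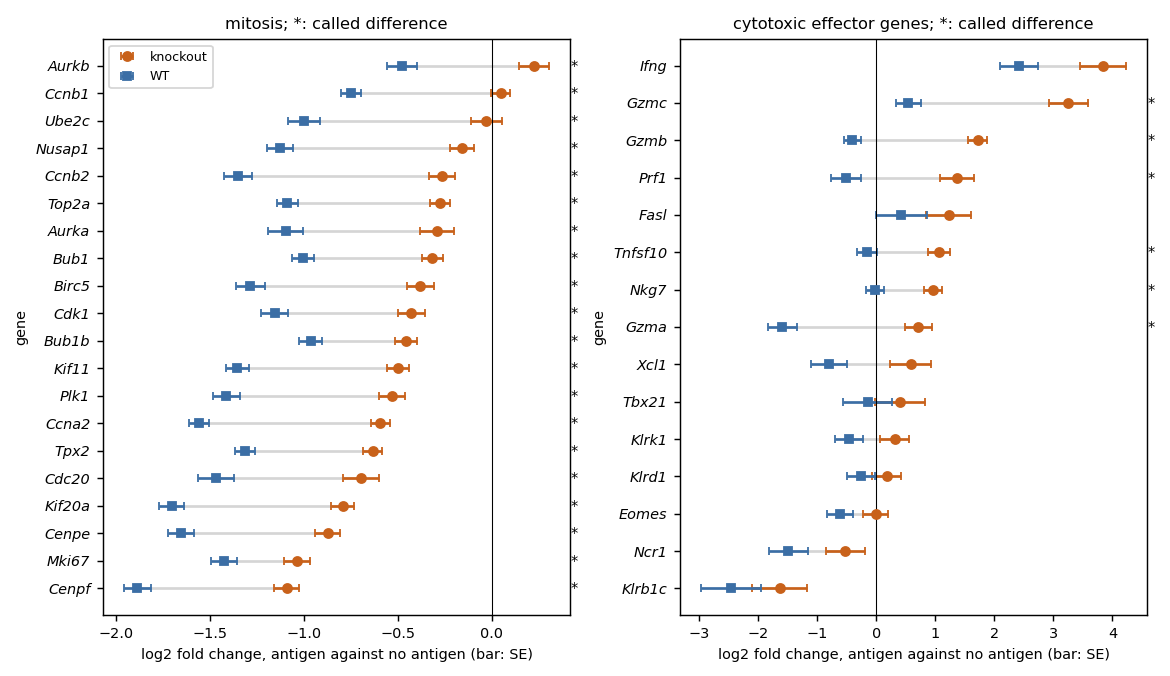
Log2 fold change with antigen (error bars, SE of the fit) of mitosis genes (left) and cytotoxic effector genes (right) in knockout (orange) and WT (blue) co-cultures, with an asterisk where the difference passed the interaction test. All 20 mitosis genes and 6 of 15 cytotoxic genes carry one, and in each the knockout value lies to the right.

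Of 11 CC chemokine genes 4 had a higher response in knockout and 0 a lower one, with 3 to 7 higher under the alternatives. They were Ccl9 (difference 0.35) and the monocyte attractants Ccl2, Ccl7 and Ccl12. Ccl9 fell with antigen in knockout cultures, and its higher response was a smaller fall than in WT. Ccl2 in WT read 79.8, 132 and 86.1 CPM without antigen and 237, 192 and 204 CPM with it, so that its log2 fold change of 2.57 in knockout compared with 1.09 in WT (difference 1.49 ± 0.29, adjusted p = 0.00441). The levels reached with antigen overlapped between genotypes, and the levels without antigen were lower in knockout. Ccl7 (1.78 ± 0.37, adjusted p = 0.00647) and Ccl12 (2.45 ± 0.56, adjusted p = 0.00958) differed in the same direction. Ccl12, another monocyte attractant, read 0.344, 1.06 and 0.1796 CPM and then 33.1, 22.3 and 22.4 CPM in knockout and 1.53, 1.64 and 1.38 CPM and then 14.2, 15.5 and 12.6 CPM in WT. Without the second no-antigen knockout library its log2 fold change in knockout was 6.64, against 5.67 with all libraries, and the difference 3.41.

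The second no-antigen knockout library moved the difference between genotypes in several lists, and without it the difference changed its call for 34 of the 218 genes named here. Of the type I genes 7 of 22 rose further in knockout with all libraries, 15 without that library, and 1 in a fit of the 12 libraries of both genotypes without cytokine. Of the interferon gamma genes 0 of 18 passed with all libraries and 16 without that library. Of the MHC class I genes 0 of 19 passed with all libraries and 15 without that library. The median log2 fold changes of the interferon gamma genes with all libraries were 1.605 in knockout and 0.73 in WT. Ifit3 differed by 1.36 ± 0.403 (adjusted p = 0.0474), a call lost under 12 of 19 alternatives.

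Other genes fell further or rose less in knockout cultures. Fn1, fibronectin, read 175, 119.97 and 157 CPM without antigen and 14.7, 15.1 and 16.3 CPM with it in knockout, against 142, 107 and 128 CPM and 64.1, 51.8 and 75.7 CPM in WT (difference -2.31 ± 0.34, adjusted p = 0.000349). The no-antigen levels overlapped between the genotypes, and with antigen every knockout library lay below every WT library. Slpi, a secreted inhibitor of leukocyte proteases, read 14.9, 10.6 and 12.5 CPM and then 91.3, 91.5 and 95.8 CPM in knockout and 1.83 ± 0.0796 and then 56.2 ± 3.08 CPM in WT (difference -2.07 ± 0.24, adjusted p = 2.18e-05), the knockout level being above WT in both conditions. Nes differed by -2.36 ± 0.404 (adjusted p = 0.000619), with 52.5 ± 5.99 and then 2.02 ± 0.397 CPM in WT. Cd5l, a macrophage apoptosis inhibitor, fell from 81.01 ± 8.66 to 34.9 ± 6.54 CPM in knockout and read 108 ± 2.13 and 93.9 ± 5.67 CPM in WT (difference -1.02 ± 0.21, adjusted p = 0.00481). Of the lysosomal lists 7 of 29 hydrolase genes, 3 of 17 pump genes and 6 of 25 autophagy genes had a lower response in knockout, and none of these lists had a gene with a higher one. Of 19 genes for lysosomal ion channels and transporters 2, Trpm2 and Mcoln2, had a higher response (0.41 and 0.24, adjusted p = 0.0491 and 0.0435) and 0 a lower one, with 0 to 3 higher and 0 to 2 lower under the alternatives. The calls of Trpm2 and Mcoln2 were lost under 12 and 9 of 19 alternatives. With library size alone as the scaling the counts of lower responses in the hydrolase, pump and autophagy lists were 1, 0 and 3, and 1 pump gene and 1 autophagy gene then had a higher response. The differences were small: Atp6v1b2 fell by 1.54 on the log2 scale in knockout, with a difference of -0.19 ± 0.047 (adjusted p = 0.00907), and Tfeb by 1.76, with a difference of -0.36 ± 0.11 (adjusted p = 0.0405). These calls were lost under 3 and 11 of 19 alternatives, library size alone among them for both. Saa3, Nos2, Il1b, Lpl and Itgax, which had wide responses in both genotypes, did not pass the interaction test (adjusted p = 0.14, 0.716, 0.461, 0.869 and 0.849). Without the second no-antigen library Saa3 passed (difference 2.34, edgeR adjusted p = 0.0176). Of the wide responses Cd38 was further up in knockout by 0.67 ± 0.12 (adjusted p = 0.000486), and Tlr2 by 0.86 ± 0.099 (adjusted p = 9.09e-06).

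Further genes with large differences had varied roles. Higher in knockout were Rasgrp3, an exchange factor for Ras, which fell from 18.5 ± 1.796 to 1.55 ± 0.359 CPM in knockout and from 30.4 ± 4.71 to 0.698 ± 0.1001 CPM in WT (difference 1.86 ± 0.32), and Marcksl1, which rose from 11.6 ± 2.03 to 135 ± 5.09 CPM and from 31.7 ± 3.85 to 148 ± 7.49 CPM (difference 1.33 ± 0.12). Tnfsf10, which encodes the death ligand TRAIL, read 3.72 ± 1.36 and then 7.65 ± 0.814 CPM in knockout and 7.61 ± 0.664 and then 6.82 ± 0.553 CPM in WT (difference 1.21 ± 0.25). Ighm, the IgM heavy chain, had a difference of 1.66 ± 0.26 between 79.6 ± 4.92 and 94.1 ± 15.8 CPM in knockout and 82.7 ± 4.94 and 31.1 ± 2.805 CPM in WT. Lower in knockout were Samd4, an RNA-binding protein gene (-1.66 ± 0.37), Fgfr1, a fibroblast growth factor receptor (-1.34 ± 0.32), Lrrc32, which holds latent TGF-beta at the cell surface (-1.02 ± 0.27), and Ptch1, the hedgehog receptor (-1.005 ± 0.11). For Fgfr1 the levels went from 13.7 ± 3.82 to 1.24 ± 0.265 CPM in knockout and from 10.3 ± 0.865 to 2.32 ± 0.142 CPM in WT.

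The knockout cultures that received antigen together with a cytokine share the no-antigen libraries with this comparison, so only levels are set side by side. Il1b read 385 ± 19.7 CPM with antigen alone, 489.9 ± 57 CPM with IL-1beta added and 428 ± 34.1 CPM with IL-18 added. Nos2 read 577 ± 102, 441 ± 116 and 445 ± 107 CPM in that order, Lox 927 ± 102, 662 ± 127 and 755 ± 91.03 CPM, and Gzmb 44.3 ± 4.34, 36.8 ± 5.96 and 44.3 ± 4.48 CPM. All of these remained on the same side of the no-antigen level, and Lpl, at 562 ± 149, 743 ± 147 and 636 ± 134 CPM, stayed far below it.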

How the data were processed

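PolyA RNA of 24 co-cultures (8 groups of 3) was sequenced, and the authors deposited raw whole-number read counts per gene in 1 table. Per the submitters' processing notes reads were handled with fastp and the genome build was GRCm39. The aligner, the counter and the strand setting are not given in the sources used here. Columns were matched to samples by title and library name, and 0 were left out. Titles name Tmem175 for every knockout sample, whereas the genotype field of all but 1 names another gene in a consecutive series, so titles were used.

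Of 55487 genes 14099 passed edgeR's filterByExpr (99.94% of counts), and 346 identifiers had no symbol (0.0228% of counts). Libraries held 17744540 to 24898552 counts. Counts were scaled with TMM factors and fitted in 1 edgeR model (version 4.0.16, with limma 3.58.1 in R 4.3.3) over all groups, with 16 residual degrees of freedom and a common biological coefficient of variation of 5.01%. Every adjusted p is from its quasi-likelihood test, two-sided, with Benjamini-Hochberg adjustment over all tested genes, and the difference of responses is the interaction of genotype and antigen. A gene with under 3 counts a library on average in a group is given as levels, with no fold.

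Named genes are a set of cytokine, macrophage and lymphocyte genes, up to 5 highest and 5 lowest called members of each list, members that did not pass, the 20 highest and 20 lowest responses without overlap and the 12 highest and 12 lowest differences among genes of at least 2 log2 CPM, and the 12 called genes of highest level that changed 2-fold or more. Members and lists were chosen with earlier results of these data known. Some genes that the rule names are not reported here.

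Alternatives were DESeq2 (version 1.42.0), its size factors, library size alone, no filter, the replicate number as a block, and the compared libraries alone. Others left out immunoglobulin genes, or 1 library at a time from the groups without added cytokine. No library with an added cytokine was left out singly. Counts and medians of lists under the alternatives do not cover the fit without immunoglobulin genes. Start-site windows are from RefSeq on build GRCm38.p6, not the build of the counts, and were matched by symbol for 10220 of 14098 tested symbols.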

Additional observations from a re-analysis of the deposited data

Results flagged for a closer look

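The response to antigen differed between the genotypes by the interaction test for 1183 genes. Those described above with a difference of at least 1 are given here, as knockout minus WT on the log2 scale. Each passed at an edgeR adjusted p under 0.05.

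Responses were higher in knockout for the cytotoxic genes Gzmc (2.71), Gzma (2.31), Gzmb (2.12) and Prf1 (1.88) and for the death ligand gene Tnfsf10 (1.21). The monocyte attractant genes Ccl12 (2.45), Ccl7 (1.78) and Ccl2 (1.49) were higher as well. So were the cyclin gene Ccnb2 (1.08), the exchange factor gene Rasgrp3 (1.86), Marcksl1 (1.33), the IgM heavy chain gene Ighm (1.66), the lectin gene Mgl2 (1.58), the granule gene Ltf (1.34) and the interferon-stimulated gene Ifit3 (1.36). Of these Ccnb2, Rasgrp3, Mgl2 and Ltf fell with antigen in knockout cultures, and their higher response was a smaller fall than in WT.

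Responses were lower in knockout for the filament gene Nes (-2.36), the fibronectin gene Fn1 (-2.31), the protease inhibitor gene Slpi (-2.07) and the RNA-binding protein gene Samd4 (-1.66). Fgfr1 (-1.34), Lrrc32 (-1.02), Cd5l (-1.02) and Ptch1 (-1.005) were lower by less. The calls of Ifit3, Ltf and Ccl7 were lost under 12, 4 and 1 of 19 alternatives, that of Lrrc32 under 1 of 19 and that of Mgl2 under 2 of 18. The other genes listed here kept theirs under the alternatives run. No cause was tested for any of them.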

How the results depend on the processing

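No count over all genes moved by over 1.5 times. Genes called with antigen (9633) numbered 9015 in a fit of the compared libraries alone to 9842 with the replicate block, and 9141 to 9414 with 1 library left out. Genes called at 2-fold or more (2735) numbered 2469 to 3238, and 2710 to 2877 with 1 library left out. Genes that differed between genotypes (1183) numbered 804 in the compared libraries alone to 1596 with the replicate block, and 819 to 1697 with 1 library left out. The Wald test of DESeq2 called 9157 and 1216 genes. Same-numbered knockout libraries did not deviate together (r 0.0016, 0.053 and 0.017 over genes), so the replicate block was not taken as a pairing. The immunoglobulin share of counts, however, was highest in replicate 1 and lowest in replicate 2 in all 4 knockout groups, and with the replicate block 59 immunoglobulin genes were called higher in place of 26.

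Of 218 named genes 199 kept the call and direction of the response under all alternatives, and 142 those of the difference. The response of mt-Atp6 did not pass with all libraries. It was between -1.42 and 1.98 (log2) with 1 library left out, passing as lower without the second antigen library and as higher without either of the other antigen libraries. Cd74 (-1.15) and Iigp1 (2.18) did not pass in the compared libraries alone. The calls of Cxcl9, Lyz2, Trac, Cd3e, Cd79a, Clec9a, Siglech, Jchain, Slc7a2 and Pdia3 were each lost under at least 1 alternative, and Casp1, Cxcl10, Csf1, Ifngr1, Lamp1 and Pdk1 passed under at least 1. The cause was not tested. Scaling moved the median of all genes to at most 0.031. At this depth genes with under 3 counts a library in a group are given without a fold.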
